A study of Mus musculus with 9 samples.

Results

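Type I interferon effector genes are the genes that cells switch on after an interferon signal and whose products act against viruses or adjust the signal itself. The 41 described here were chosen as a list of symbols in the deposited count table, which holds 57180 genes: the ISG15 conjugation system, Stat2, the IFIT family, direct antiviral effectors, the PYHIN family, antiviral PARPs with Dtx3l, TRIM ubiquitin ligases, genes of PML nuclear bodies and chromatin, and 7 other interferon-induced genes. The list leaves out the OAS enzymes, the interferon-inducible GTPases and the interferon regulatory factors, apart from Ifi47, which belongs to the GTPases and is in the list. All 41 passed the filter on low counts and were tested among 17168 genes.

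Whole skin RNA was sequenced from BALB/c nude mice, an inbred albino strain whose Foxn1 defect leaves it without a thymus and nearly without hair. There were 3 groups of 3 libraries each: NoUVB, which was not irradiated; UVB_Saline, irradiated with ultraviolet B (UVB) on the back and given saline; and UVB_hCOL3A1, irradiated in the same way and given hCOL3A1, which the series title describes as messenger RNA delivering type III collagen for photoaged skin. Irradiation was given every other day for 8 weeks, at 60 mJ per square centimetre (1 minimal erythemal dose, MED) in the first 2 weeks, 120 (2 MED) in week 3, 180 (3 MED) in week 4 and 240 (4 MED) in weeks 5 to 8. Tissue is labelled as collected at day 28, and the labels do not say from which day this is counted. NoUVB carries no saline in its label, and no group that received another RNA or an empty carrier was analysed here, so in these samples the RNA, its carrier and the encoded collagen cannot be told apart. Age, sex and the animal behind each library are not in the labels, so p-values measure only the spread between these libraries, which may be technical.

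Type I interferons bind a receptor made of Ifnar1 and Ifnar2 on the cell surface. The kinases on that receptor phosphorylate Stat2, which together with Irf9 is part of the complex ISGF3, and ISGF3 binds interferon-stimulated response elements in the promoters of genes such as those described here. In skin, keratinocytes, dendritic cells and other resident cells can make type I interferons or answer them, and most effector genes also answer, to differing degrees, to type II and type III interferons.

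The core of the response element is GAAA, any 2 bases and GAAA again, which reads on the other strand as TTTC, any 2 bases and TTTC. RefSeq promoter windows of 300 bases (250 before and 50 after the annotated start, GRCm38.p6) were found for 31 of the 41 genes, and 13 of these (41.9%) held the motif on either strand. Over all 27025 genes with a window the share was 3.99%. For comparison, TTCNNNGAA (N is any base), the palindromic core of the GAS element of interferon gamma responses, was in 3 of the 31 (9.68%), close to its share of 9.55% over all genes; Bst2 held both motifs, and there they overlapped. The stretches below, from genes whose values are given in detail, show how the motif is arranged, with the GAAA or TTTC blocks of each match in capitals; a match is a run of letters, and binding was not measured.
Isg15: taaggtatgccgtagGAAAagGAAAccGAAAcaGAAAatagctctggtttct
Ifit1: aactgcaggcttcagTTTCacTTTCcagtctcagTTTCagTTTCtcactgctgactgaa
Ifit3: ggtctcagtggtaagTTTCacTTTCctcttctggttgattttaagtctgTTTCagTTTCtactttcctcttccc
Ifit3b: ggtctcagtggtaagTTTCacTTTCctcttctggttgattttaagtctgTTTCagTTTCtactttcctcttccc
Rsad2: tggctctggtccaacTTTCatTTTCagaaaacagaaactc
Bst2: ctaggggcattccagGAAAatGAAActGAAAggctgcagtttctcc
Stat2: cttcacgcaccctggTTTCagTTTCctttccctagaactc
Ifi203: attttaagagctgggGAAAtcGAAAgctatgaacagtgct
Trim30d: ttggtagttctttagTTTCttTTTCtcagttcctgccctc

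These stretches lie upstream of the annotated start and are written 5′ to 3′ on the gene's own strand. In GRCm38.p6 they are chr4:156200860-156200911 on the minus strand for Isg15, chr19:34640770-34640828 on the plus strand for Ifit1, chr19:34583358-34583431 and chr19:34607754-34607827 on the plus strand for Ifit3 and Ifit3b, chr12:26456548-26456587 on the minus strand for Rsad2, and chr8:71537572-71537617 on the minus strand for Bst2. The Stat2 stretch is chr10:128270261-128270300 on the plus strand, that of Ifi203 chr1:173942503-173942542 on the minus strand, and that of Trim30d chr7:104507866-104507905 on the minus strand. Isg15 held 3 overlapping matches in a single run, while Ifit1, Ifit3 and Ifit3b each held 2 that were set apart. The 74 bases shown for Ifit3 and Ifit3b were identical, and the 40 bases of Trim30d were identical to those of its neighbour Trim30a, at chr7:104465205-104465244 on the minus strand. Other genes of the list with the motif were Ddx60, Ifi211 and Trim21. By RefSeq gene order, Rsad2 and Cmpk2, Ifit2 and Ifit3, Ifi211 and Ifi203, Trim30a and Trim30d, and the trio Parp14, Dtx3l and Parp9 are direct neighbours, so these genes are not independent of each other in place.

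Total estimated counts were 7640170 to 12927400 per library, and the ribosomal gene Rn18s took 7.71% to 55.3% of them. Levels are in CPM, the count of a gene scaled to the size of its library, with TMM factors between libraries; differences are fitted log2 values ± standard error (SE) from edgeR's quasi-likelihood test, and an adjusted p is that test's, by Benjamini-Hochberg over the 17168 genes. Skin markers were present in every group. The basal keratinocyte list (Krt5, Krt14, Krt15, Col17a1, Itga6 and Trp63) summed to 4427 CPM in UVB_Saline 3 and to 2233 to 2872 CPM in the other libraries. Its genes did not move together. In UVB_Saline 3, Krt14 was at 2296 CPM (673 to 1059 in the other libraries), while Krt15, at 61.4 CPM, was lower than in any other library. Of the 6 genes, 1 was higher and 2 were lower at an unadjusted p under 0.05 in UVB_Saline against NoUVB (4.93% and 4.6% of all genes). The fibroblast list (6 genes) summed to 5702 to 6905 CPM in NoUVB, 5517 to 5900 in UVB_Saline and 7012 to 8400 in UVB_hCOL3A1. In UVB_hCOL3A1 against UVB_Saline, 5 of the 6 were higher at an unadjusted p under 0.05 (5.97% of all genes) and 0 passed adjustment. The differentiation keratin Krt2 was near 0.

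The UVB_Saline libraries differed widely among themselves in these genes. This touches every comparison, because 1 fit of the 3 groups shares its estimate of spread among them. Relative to the NoUVB mean, the mean log2 level over the 41 genes was 0.10, -0.02 and -0.08 in NoUVB, 0.10, 0.77 and 1.83 in UVB_Saline, and 1.07, 1.08 and 1.18 in UVB_hCOL3A1. UVB_Saline 1 thus lay at the level of unirradiated skin, UVB_Saline 3 above every other library, and the UVB_hCOL3A1 libraries close together between UVB_Saline 2 and UVB_Saline 3. Of the 41 genes, 10, 35 and 41 were above all NoUVB libraries in UVB_Saline 1, 2 and 3, and 39, 34 and 41 in UVB_hCOL3A1 1, 2 and 3. UVB_Saline 3 was the highest of the 9 libraries for 34 genes and UVB_hCOL3A1 2 for the other 7, which were Ifit3, Ifit3b, Rsad2, Trim30d, Ifi27l2a, Epsti1 and Lgals3bp. UVB_Saline 1 was the lowest irradiated library for 38 genes.

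**Figure D1:**
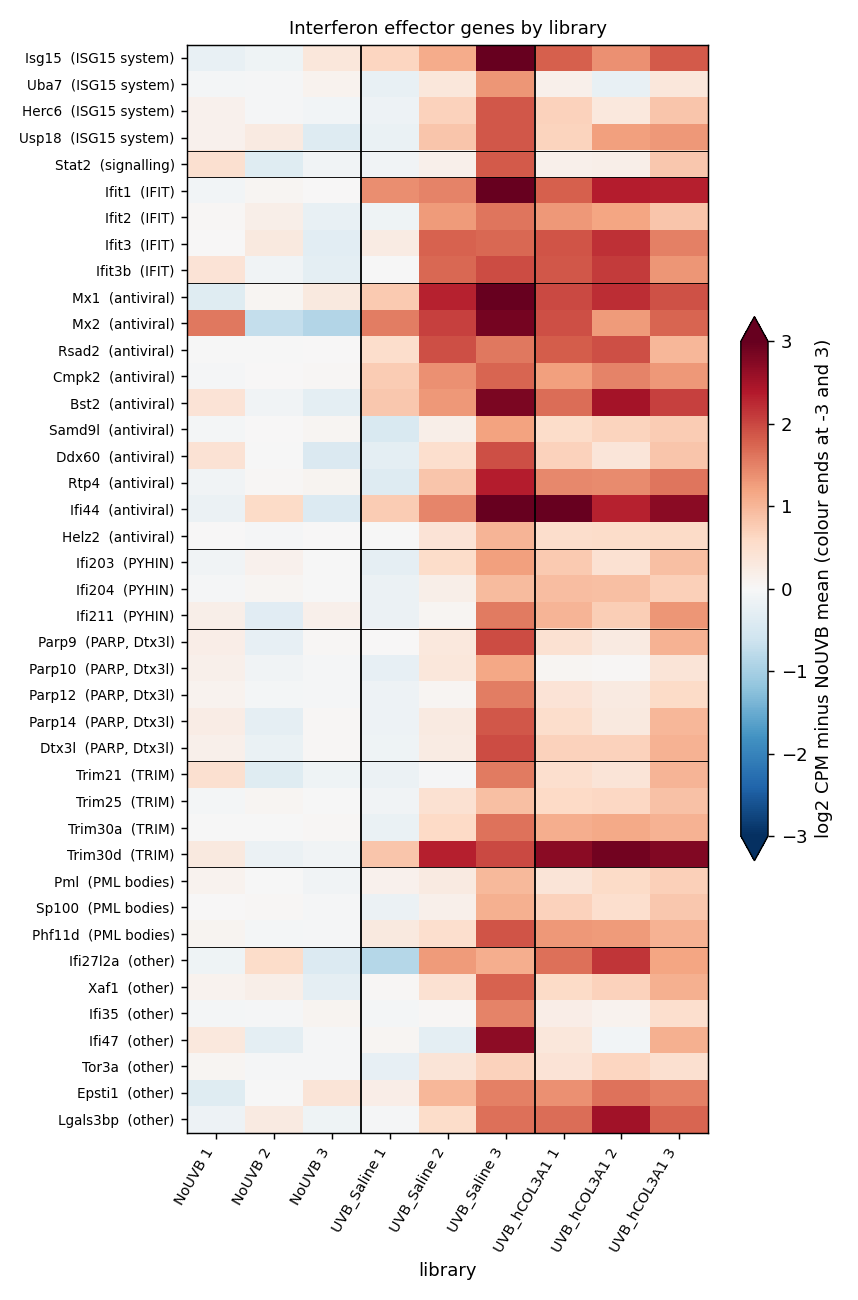
Heat map of log2 CPM minus the NoUVB mean for the 41 genes (rows, ordered by role) in the 9 libraries (columns); red is higher and blue lower, and the colour scale ends at 3 in either direction. UVB_Saline 1 resembles the NoUVB columns, and UVB_Saline 3 is the highest library for 34 of the 41 genes.

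Against unirradiated skin, the fitted difference was positive for all 41 genes in UVB_Saline and for all 41 in UVB_hCOL3A1, where 51.8% and 49.2% of all genes were positive. The median log2 difference over the 41 was 0.97 in UVB_Saline (all genes 0.01) and 0.86 in UVB_hCOL3A1 (all genes -0.01). Both comparisons use the same 3 NoUVB libraries, so they are not separate evidence of one direction. In UVB_Saline against NoUVB, 0 of the 41 passed an adjusted p of 0.05 in edgeR, as did 0.0175% of all genes. DESeq2 called 5 (Mx1, Cmpk2, Ifit1, Bst2 and Trim30d), among 36 genes called higher and 64 called lower. In edgeR, 21 were higher at an unadjusted p under 0.05 (4.93% of all genes) and none lower (4.6%). For 10 the groups did not overlap (7.18%). In UVB_hCOL3A1 against NoUVB, 1 of the 41 passed in edgeR, Trim30d (0.0408% of all genes). DESeq2 called 11 of the 41, among 181 genes called higher and 88 called lower. A fit by edgeR of these 6 libraries alone called 26, among 283 genes called higher and 124 called lower of 16499 tested. With all 9 libraries in edgeR, 26 were higher at an unadjusted p under 0.05 (6.29% of all genes) and none lower (5.52%). For 34 the groups did not overlap (10.7%).

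The 6 irradiated libraries against NoUVB gave a median of 0.91 over the 41 genes (all genes 0.00), all of them positive (50.6% of all genes). In edgeR 0 were called (0.0116% of all genes), 27 were higher at an unadjusted p under 0.05 (5.2%) and none lower (5.18%). For 10 the groups did not overlap (2.05%). DESeq2 called 12 of the 41, among 95 genes called higher and 71 called lower. The 10 without overlap were Isg15, Ifit1, Mx1, Rsad2, Cmpk2, Bst2, Ifi44, Trim30d, Pml and Phf11d, the same 10 as in UVB_Saline against NoUVB. A gene without overlap over all 6 irradiated libraries has none in UVB_Saline either, so this match is largely fixed in advance. Among them, Isg15, Mx1, Ifi44 and Trim30d were below the level that the filter on low counts asks for in some or all NoUVB libraries.

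**Figure D2:**
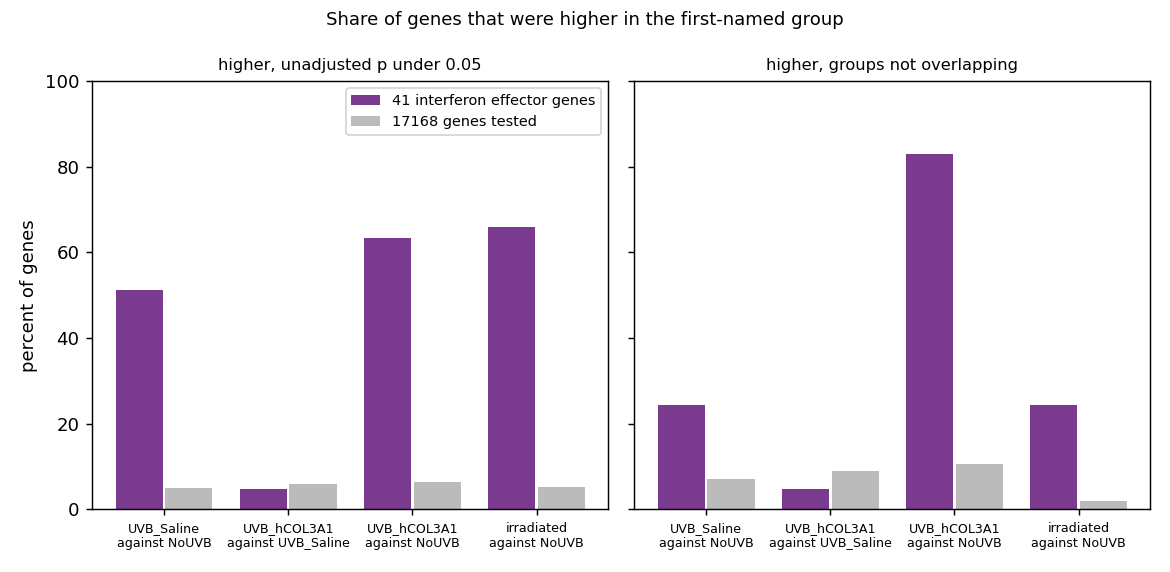
Percent of the 41 genes (purple) and of all 17168 genes tested (grey) that were higher in the first-named group, by unadjusted p under 0.05 (left) and by groups that did not overlap (right), in the 4 comparisons. For UVB_hCOL3A1 against NoUVB, 34 of the 41 did not overlap, against 10.7% of all genes.

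Between the irradiated groups the number of genes in each direction depended on the fit. In UVB_hCOL3A1 against UVB_Saline, 23 of 41 were positive (46.1% of all genes), with a median of 0.03 (all genes -0.02). Of the 41, limma voom gave 29 positive and voom with quality weights 35. The median of all genes was -0.013 and -0.0099 in those fits. In edgeR 0 of 41 passed, as did 0 of all genes; 2 were higher at an unadjusted p under 0.05 (5.97% of all genes), Trim30d and Lgals3bp, none was lower (5.32%), and the groups did not overlap for those 2 (8.95%). DESeq2 also called 0 of the 41, while it called 125 genes higher and 48 lower.

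Both outlying UVB_Saline libraries moved these counts. Without UVB_Saline 3, the median in UVB_Saline against NoUVB was 0.25 (all genes -0.008), with 33 of 41 positive. At an unadjusted p under 0.05, 13 were higher (3.55% of all genes). For UVB_hCOL3A1 against UVB_Saline the median was then 0.66 (all genes 0.006), with 40 of 41 positive. Of these, 24 were higher at an unadjusted p under 0.05 (9.39% of all genes). In edgeR 2 were called, Sp100 and Ifi204, among 71 genes called higher and 7 called lower. In UVB_hCOL3A1 against NoUVB, 20 of the 41 were then called, among 242 genes, although the compared libraries were the same. The fit shares 1 estimate of spread per gene among the groups, so UVB_Saline 3 also enters this comparison. Without it the difference went from 2.28 ± 0.60 to 2.29 ± 0.23 in Ifit1 and from 3.25 ± 0.44 to 3.27 ± 0.44 in Trim30d. How much of the change in calls comes from the shared spread was not tested. Without UVB_Saline 1, by contrast, UVB_Saline against NoUVB had 38 higher at an unadjusted p under 0.05 (7.31% of all genes). It had 4 called (Mx1, Ifit2, Trim30d and Ifit3) among 12 genes. UVB_hCOL3A1 against UVB_Saline then had 8 of 41 positive, where the median of all genes was -0.014. The direction between the irradiated groups therefore depended on which UVB_Saline library was kept.

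In the ISG15 system, the ubiquitin-like protein Isg15 is attached to other proteins by enzymes that include the activating enzyme Uba7 and the ligase Herc6, and is removed by Usp18, which also dampens signalling at the interferon receptor. Of these 4 genes, 3 were higher at an unadjusted p under 0.05 in UVB_Saline against NoUVB (4.93% of all genes). In UVB_hCOL3A1 against NoUVB 2 were (6.29%), and none of the 4 passed adjustment in either comparison. Isg15 stood at 0.994, 1.07 and 1.54 CPM in NoUVB, 1.95, 2.80 and 12.8 in UVB_Saline, and 4.57, 3.39 and 4.75 in UVB_hCOL3A1. Every irradiated library was above every unirradiated one, and UVB_Saline 3 was well above the rest. The log2 difference from NoUVB was 2.23 ± 0.71 in UVB_Saline (adjusted p 0.401) and 1.79 ± 0.72 in UVB_hCOL3A1 (adjusted p 0.38). Usp18 stood at 3.12, 3.48 and 2.12 CPM in NoUVB, 2.46, 5.26 and 10.8 in UVB_Saline, and 4.65, 6.96 and 7.34 in UVB_hCOL3A1. The UVB_hCOL3A1 libraries were all above NoUVB, while UVB_Saline 1 lay within its range; the differences were 1.08 ± 0.48 and 1.11 ± 0.48 (adjusted p 0.523 and 0.407). Uba7, singled out after its values were seen, had the smallest difference of the 41 in UVB_hCOL3A1 against NoUVB, at 0.10.

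Stat2, the subunit of ISGF3 that carries its activating domain, was at 59.1, 33.0 and 39.2 CPM in NoUVB, 39.2, 47.3 and 151 in UVB_Saline, and 46.9, 48.3 and 74.7 in UVB_hCOL3A1. A single library, UVB_Saline 3, was far above the others, and the other groups overlapped. The differences from NoUVB were 0.86 ± 0.54 and 0.38 ± 0.54 (adjusted p 0.672 and 0.829). Without UVB_Saline 3 the first of these was -0.02.

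In the IFIT family, the Ifit1 protein binds viral RNA that lacks the cap methylation of host messages. All 4 genes were higher at an unadjusted p under 0.05 in both irradiated groups against NoUVB (4.93% and 6.29% of all genes). In UVB_hCOL3A1 none of the 4 overlapped with NoUVB (10.7% of all genes did not overlap in this direction). Ifit1 stood at 1.70, 1.88 and 1.83 CPM in NoUVB, 5.03, 5.43 and 21.1 in UVB_Saline, and 6.71, 10.1 and 9.82 in UVB_hCOL3A1. Even UVB_Saline 1, which sat with unirradiated skin for most of the genes, was above every NoUVB library here. The differences were 2.52 ± 0.60 and 2.28 ± 0.60 (adjusted p 0.303 and 0.205).

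Ifit3 was at 3.55, 4.29 and 2.79 CPM in NoUVB, 4.21, 12.3 and 11.9 in UVB_Saline, and 13.4, 16.7 and 10.4 in UVB_hCOL3A1. Its near copy Ifit3b was at 1.85, 1.25 and 1.06, then 1.33, 4.93 and 5.85, then 5.41, 6.40 and 3.67 CPM. In both genes UVB_Saline 1 lay within the NoUVB range, and UVB_Saline 3 lay within the range of the UVB_hCOL3A1 libraries. The differences from NoUVB were 1.42 ± 0.39 and 1.92 ± 0.39 for Ifit3 (adjusted p 0.353 and 0.145), and 1.58 ± 0.50 and 1.93 ± 0.50 for Ifit3b (adjusted p 0.396 and 0.193). Because estimated counts share reads between near copies, the split between this pair is uncertain. Their sum, which does not depend on it, was 5.40, 5.54 and 3.85 CPM in NoUVB, 5.54, 17.3 and 17.8 in UVB_Saline, and 18.8, 23.1 and 14.03 in UVB_hCOL3A1.

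Among the 10 direct antiviral effectors, 7 were higher at an unadjusted p under 0.05 in each irradiated group against NoUVB (4.93% and 6.29% of all genes). Rsad2 encodes viperin, which makes a chain-terminating nucleotide, and its neighbour Cmpk2 is a nucleotide kinase that supplies the substrate. Cmpk2 was at 1.28, 1.34 and 1.35 CPM in NoUVB, 2.36, 3.70 and 4.88 in UVB_Saline, and 3.35, 4.05 and 3.56 in UVB_hCOL3A1. Its difference was 1.45 ± 0.30 in both groups (adjusted p 0.231 in UVB_Saline and 0.144 in UVB_hCOL3A1), and every irradiated library was above every NoUVB library. Rsad2 was at 1.42, 1.43 and 1.443 CPM in NoUVB, 2.16, 6.001 and 4.66 in UVB_Saline, and 5.49, 6.02 and 3.02 in UVB_hCOL3A1. It, too, did not overlap, with differences of 1.58 ± 0.40 and 1.76 ± 0.40 (adjusted p 0.305 and 0.16).

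Mx1 encodes a GTPase against influenza viruses; in BALB/c, as in most inbred strains, the gene carries a deletion that leaves no functional protein, so its counts stand for RNA only. Mx1 was at 1.14, 1.61 and 1.92 CPM in NoUVB, 2.77, 8.39 and 18.4 in UVB_Saline, and 6.63, 7.81 and 6.26 in UVB_hCOL3A1. The differences were 2.62 ± 0.62 and 2.11 ± 0.63 (adjusted p 0.302 and 0.257), with no overlap between irradiated and unirradiated libraries. Bst2, or tetherin, holds budding virus on the cell surface. It was at 2.13, 1.43 and 1.25 CPM in NoUVB, 2.87, 4.11 and 12.4 in UVB_Saline, and 5.41, 9.69 and 7.12 in UVB_hCOL3A1, again without overlap. The differences were 2.02 ± 0.57 and 2.23 ± 0.57 (adjusted p 0.359 and 0.197). The largest fitted difference of the 41 in UVB_Saline was in Ifi44, singled out after its values were seen, at 3.09 ± 1.08 (adjusted p 0.447); UVB_Saline 3 held 19.4 CPM and the other UVB_Saline libraries 1.54 and 2.63.

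**Figure D3:**
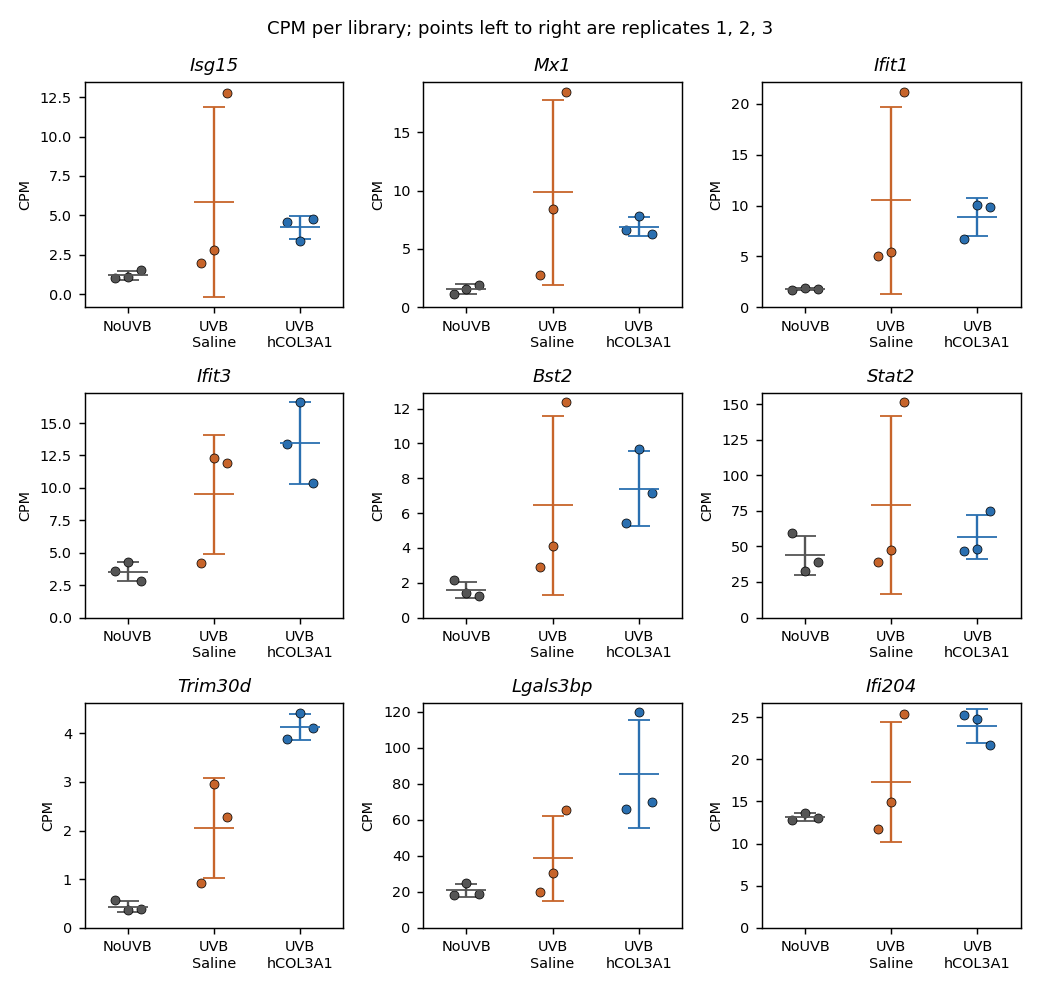
CPM of 9 of the genes in each library (points; replicates 1, 2 and 3 from left to right) with the group mean and SD as bars, for NoUVB (grey), UVB_Saline (orange) and UVB_hCOL3A1 (blue), with n = 3 each. Stat2 is high in UVB_Saline 3 at 151 CPM, whereas Lgals3bp and Trim30d are highest in the UVB_hCOL3A1 libraries.

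PYHIN proteins such as Ifi203, Ifi204 and Ifi211 bind DNA in the nucleus or cytosol. None of the 3 was higher at an unadjusted p under 0.05 in UVB_Saline against NoUVB (4.93% of all genes). In UVB_hCOL3A1 against NoUVB all 3 were (6.29%), none after adjustment. Ifi204 was at 12.8, 13.7 and 13.0 CPM in NoUVB, 11.7, 14.96 and 25.4 in UVB_Saline, and 25.3, 24.8 and 21.7 in UVB_hCOL3A1. The UVB_hCOL3A1 libraries all lay above NoUVB, by 0.86 ± 0.24 (adjusted p 0.205), and above UVB_Saline 1 and 2 but not above UVB_Saline 3. Between the irradiated groups the difference was 0.47 ± 0.23 (adjusted p 0.479), without UVB_Saline 3 it was 0.86 (adjusted p 0.0365), and without UVB_Saline 1 it was 0.26 (adjusted p 0.706). Ifi203 was at 19.9, 23.6 and 21.2 CPM in NoUVB, 17.8, 31.5 and 50.7 in UVB_Saline, and 37.1, 29.7 and 40.4 in UVB_hCOL3A1, with differences from NoUVB of 0.62 ± 0.32 and 0.73 ± 0.32 (adjusted p 0.599 and 0.423). These genes belong to a cluster of close copies, so the split of reads among them is uncertain.

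Parp9 and Dtx3l form a complex that modifies histones and viral proteins, and the genes share a promoter region. In the group of 4 PARPs and Dtx3l, none of 5 passed an unadjusted p of 0.05 against NoUVB in either irradiated group. Over all genes, 4.93% and 6.29% were higher at that threshold. Dtx3l was at 21.6, 16.8 and 19.9 CPM in NoUVB, 17.8, 23.1 and 76.0 in UVB_Saline, and 31.2, 31.2 and 40.3 in UVB_hCOL3A1. Parp9 was at 21.7, 16.0 and 19.5, then 19.0, 23.8 and 73.7, then 25.9, 22.96 and 39.0 CPM. In both genes UVB_Saline 3 held more than any other library, and UVB_hCOL3A1 was above NoUVB without overlap, though the differences missed an unadjusted p of 0.05: 0.82 ± 0.51 for Dtx3l and 0.62 ± 0.51 for Parp9 (adjusted p 0.587 and 0.686).

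Trim30d, a member of the mouse TRIM30 family of RING-type proteins, was the only one of the 41 to pass adjustment in the edgeR fit that gives the differences here. Other edgeR settings called more of the 41 or none, as listed in the closing section. It stood at 0.568, 0.357 and 0.385 CPM in NoUVB, 0.924, 2.96 and 2.28 in UVB_Saline, and 3.89, 4.42 and 4.10 in UVB_hCOL3A1. The 3 groups did not overlap, and UVB_hCOL3A1 was the highest. It rose in UVB_hCOL3A1 against NoUVB by 3.25 ± 0.44 (adjusted p 0.0483), while the other differences were 2.26 ± 0.46 in UVB_Saline against NoUVB (adjusted p 0.231) and 0.99 ± 0.35 between the irradiated groups (adjusted p 0.353). The NoUVB values rest on 4.18, 4.11 and 4.13 estimated counts, which are not whole numbers; such estimates share reads among near copies, of which Trim30a is one. All 3 lay below the level that the filter on low counts asks for. The gene could thus be tested only because other libraries were high, which limits what the call can show. The adjusted p of the call ranged from 2.88e-06 to 0.239 over 20 alternatives and passed the threshold in neither limma voom (0.107) nor the fit without robust dispersion (0.0567). Leaving out NoUVB 1, 2 or 3, UVB_Saline 2, or UVB_hCOL3A1 1, 2 or 3 also ended it, with an adjusted p of 0.228, 0.191, 0.166, 0.0647, 0.204, 0.239 and 0.118.

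Trim25, the ubiquitin ligase that acts on the RNA sensor RIG-I, was at 35.9, 39.0 and 36.9 CPM in NoUVB, 34.7, 51.2 and 70.4 in UVB_Saline, and 57.0, 57.9 and 68.5 in UVB_hCOL3A1. UVB_Saline 1 lay below the NoUVB range, and the 3 UVB_hCOL3A1 libraries lay well above it. The differences were 0.48 ± 0.21 and 0.71 ± 0.21 (adjusted p 0.521 and 0.246). In the TRIM family as a whole, 3 of 4 were higher at an unadjusted p under 0.05 in each irradiated group (4.93% and 6.29% of all genes). The exception was Trim21, the antibody receptor of the cytosol.

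Pml organises the nuclear bodies that bear its name, and Sp100 is another constituent of them. Pml was at 22.6, 20.5 and 19.4 CPM in NoUVB, 22.7, 25.2 and 41.2 in UVB_Saline, and 27.4, 31.0 and 34.4 in UVB_hCOL3A1. The irradiated libraries were all above NoUVB, UVB_Saline 1 only just, and the differences were small: 0.51 ± 0.21 and 0.57 ± 0.21 (adjusted p 0.49 and 0.325). Phf11d, a PHD-finger gene of a cluster of close copies, was at 5.97, 5.36 and 5.48 CPM in NoUVB, 6.88, 8.06 and 21.4 in UVB_Saline, and 14.03, 13.7 and 11.7 in UVB_hCOL3A1. It did not overlap either, at 1.103 ± 0.39 and 1.24 ± 0.39 (adjusted p 0.446 and 0.278).

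Of the other 7 genes, Lgals3bp encodes a secreted glycoprotein that binds galectins. It was at 18.5, 24.9 and 18.9 CPM in NoUVB, 20.1, 30.2 and 65.3 in UVB_Saline, and 65.8, 120 and 70.1 in UVB_hCOL3A1. Each UVB_hCOL3A1 library was above each UVB_Saline library, though UVB_hCOL3A1 1 only narrowly so. The differences were 2.03 ± 0.45 in UVB_hCOL3A1 against NoUVB (adjusted p 0.176), 0.88 ± 0.44 in UVB_Saline against NoUVB (adjusted p 0.599) and 1.15 ± 0.43 between the irradiated groups (adjusted p 0.393). Epsti1, named for its induction in epithelial cells by stroma, was at 3.41, 4.47 and 5.87 CPM in NoUVB, 5.13, 9.13 and 13.1 in UVB_Saline, and 11.9, 14.3 and 13.1 in UVB_hCOL3A1. UVB_Saline 1 lay within the NoUVB range, and UVB_hCOL3A1 differed from NoUVB by 1.49 ± 0.31 (adjusted p 0.145).

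Ifi27l2a, which encodes a small membrane protein, was at 2.84, 4.73 and 2.31 CPM in NoUVB, 1.64, 7.89 and 6.94 in UVB_Saline, and 10.3, 14.6 and 7.45 in UVB_hCOL3A1. UVB_Saline 1 was below every NoUVB library, and the UVB_hCOL3A1 libraries were above them all, by 1.69 ± 0.52 (adjusted p 0.271). Ifi47, singled out after its values were seen, showed the opposite arrangement: 37.2 CPM in UVB_Saline 3 and 4.52 to 11.98 in the other irradiated libraries, beside 4.55 to 6.96 in NoUVB. Its difference between the irradiated groups, -0.96 ± 0.79 (adjusted p 0.698), was the most negative of the 41.

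**Figure D4:**
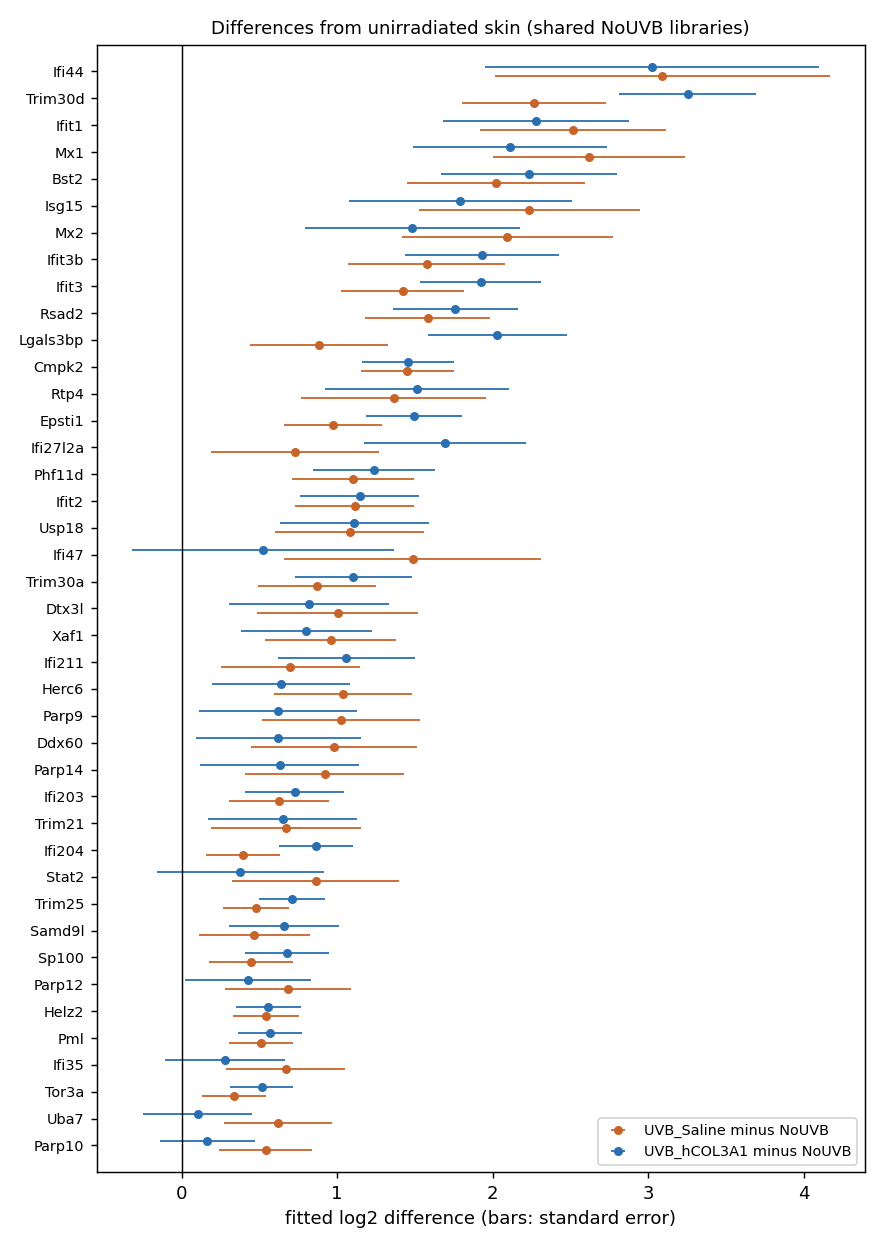
Fitted log2 difference from NoUVB (points) with its standard error (bars) for the 41 genes in UVB_Saline (orange) and UVB_hCOL3A1 (blue), ordered by the irradiated mean; both use the same NoUVB libraries. All points lie above 0. Trim30d in UVB_hCOL3A1, at 3.25, is the one that passed adjustment in this fit, and it was below the filter level in every NoUVB library.

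In the 13 genes with the response-element motif, the median difference was 1.42 in UVB_Saline and 1.76 in UVB_hCOL3A1 against NoUVB. In the 18 genes with a window but no motif, it was 0.92 and 0.69. The 10 genes without a window, Mx1, Mx2 and Usp18 among them, gave 0.97 and 0.99. The ranges overlapped widely: with the motif, from 0.62 to 2.52 in UVB_Saline, and without it, from 0.44 to 3.09.

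In at least 1 NoUVB library, 5 genes (Isg15, Mx1, Mx2, Ifi44 and Trim30d) were below the level that the filter asks for, 0.938 CPM without TMM factors, which is 10 counts in a library of median size; Trim30d was below it in all 3. A gene of this kind could be tested only because other libraries were high. Over the other 36 genes the medians were 0.90 in UVB_Saline and 0.76 in UVB_hCOL3A1 against NoUVB. Of them, 16 and 22 were higher at an unadjusted p under 0.05 (4.93% and 6.29% of all genes).

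The genes upstream in the pathway were listed as ligands, receptors, and signalling and feedback genes, 37 in all, of which 16 passed the filter. None of the 21 ligand genes passed it. Of 19 genes for interferon alpha, beta, epsilon, zeta and lambda, 13 had 0 counts in all 9 libraries and, after rounding, no library held more than 3 counts of any; 3 counts, the limit a count of 0 allows, correspond to 0.229 to 0.426 CPM. The keratinocyte interferon gene Ifnk had 7, 3 and 11 counts in NoUVB, 2, 8 and 13 in UVB_Saline, and 7, 6 and 4 in UVB_hCOL3A1. The gene for interferon gamma, Ifng, had 4, 1 and 2 counts, then 2, 1 and 24, then 7, 1 and 10, with its highest value in UVB_Saline 3. The ligand genes were below the filter, so this fit did not test differences in them.

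Of the 16 tested pathway genes, 0 passed an adjusted p of 0.05 in any comparison in edgeR, and likewise 0 in DESeq2 and limma voom. At an unadjusted p under 0.05, 2 were higher and 1 lower in UVB_Saline against NoUVB (4.93% and 4.6% of all genes), and 3 higher and 1 lower in UVB_hCOL3A1 against UVB_Saline (5.97% and 5.32%). In UVB_hCOL3A1 against NoUVB 0 were higher and 1 lower (6.29% and 5.52%), and in irradiated against NoUVB 1 was higher and 0 lower (5.2% and 5.18%). Irf9, the DNA-binding subunit of ISGF3, was at 18.9, 13.3 and 16.9, then 17.4, 23.3 and 44.4, then 19.1, 18.3 and 28.1 CPM, a difference of 0.80 ± 0.34 in UVB_Saline (adjusted p 0.511) that was 0.32 without UVB_Saline 3. As with Stat2, UVB_Saline 3 was the highest.

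The receptor chain Ifnar1 varied little: 25.1, 28.8 and 30.6 CPM in NoUVB, 26.7, 36.3 and 41.7 in UVB_Saline, and 34.8, 33.7 and 36.3 in UVB_hCOL3A1. Its difference in irradiated against NoUVB was 0.31 ± 0.13 (adjusted p 0.465). Ifnar2 was at 15.1, 19.2 and 18.0, then 11.3, 15.2 and 21.1, then 22.1, 27.9 and 19.8 CPM, 0.55 ± 0.22 higher in UVB_hCOL3A1 than in UVB_Saline (adjusted p 0.389). Between the same groups, Ifngr1, a chain of the interferon gamma receptor, differed by 0.66 ± 0.21 (adjusted p 0.318). Its mean was 69.6 CPM in NoUVB, 46.7 in UVB_Saline and 74.0 in UVB_hCOL3A1. Every UVB_Saline library lay below every NoUVB library, at -0.58 ± 0.21 (adjusted p 0.447). Il10rb, a chain shared by the receptors for lambda interferons and interleukin 10, differed between the irradiated groups by 0.62 ± 0.24 (adjusted p 0.377), and Ifnlr1, the specific lambda chain, by -0.75 ± 0.15 (adjusted p 0.201). Ifnlr1 was lower in each UVB_hCOL3A1 library, at 4.80, 5.08 and 4.32 CPM, than in each UVB_Saline library, at 8.21, 8.06 and 7.70, with NoUVB between them at 6.25, 5.63 and 6.54.

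The 41 genes followed each other closely over the 9 libraries. The Pearson correlation of a gene's log2 CPM with the mean of the other 40 ran from 0.71 in Uba7 to 0.99 in Helz2, with a median of 0.91; the libraries share groups and depth, so this is a description. Among 12793 genes ranked for likeness to the mean of the 41, those outside the list that came first were Oasl2 (0.992), Rigi (0.990), Oas3 (0.988), Oas2 (0.984) and Oas1a (0.982). Oasl2 was at 14.9, 10.4 and 11.6 CPM in NoUVB, 14.7, 27.2 and 106 in UVB_Saline, and 37.5, 41.3 and 55.2 in UVB_hCOL3A1, with UVB_Saline 1 low and UVB_Saline 3 high in the same way. Rigi, the gene for RIG-I, was at 21.2, 19.7 and 18.9, then 18.9, 26.5 and 49.97, then 31.3, 31.7 and 34.8 CPM.

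Marker lists of blood cells went with the effector levels in some respects and not in others. The leukocyte list (5 genes, Ptprc among them) summed to 106 to 147 CPM in NoUVB, 85.0, 145 and 251 in UVB_Saline, and 177 to 259 in UVB_hCOL3A1. The macrophage list (8 genes) ranged from 415 to 456, 261 to 703 and 580 to 832 CPM in the same order, and the NK cell list (8 genes) from 5.45 to 6.53, 5.13 to 28.0 and 15.2 to 18.2 CPM. In UVB_Saline the lowest of each of these 3 lists was library 1 and the highest library 3, the same order as in the effector genes. Over all 9 libraries, however, the leukocyte and macrophage sums were highest in UVB_hCOL3A1 3, not in UVB_Saline 3. The NK cell sum, and the Langerhans and T cell sums given below, were highest in UVB_Saline 3. The Langerhans and dendritic cell list (8 genes) stood at 64.6 to 99.0 CPM in NoUVB and 67.6 to 89.7 in UVB_hCOL3A1. In UVB_Saline 1, 2 and 3 it stood at 66.8, 83.3 and 117 CPM, again the order of the effector genes. Of its genes, 0 were higher at an unadjusted p under 0.05 in any comparison. The B and plasma cell list (6 genes) was at 1.14 to 2.02, 0.575 to 18.1 and 2.73 to 36.4 CPM, lowest in UVB_Saline 2. In UVB_hCOL3A1 against NoUVB, 5 of 8 macrophage, 3 of 5 leukocyte and 4 of 7 tested NK cell markers were higher at an unadjusted p under 0.05 (6.29% of all genes), and in UVB_Saline against NoUVB 0, 0 and 2 were (4.93%); 0 passed adjustment in edgeR. The part of these markers in the results was not tested, and in whole skin more cells of a type and more RNA per cell cannot be told apart.

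Plasmacytoid dendritic cells are known for making type I interferon in quantity. Their list (8 genes) summed to 137 to 158 CPM in NoUVB, 135 to 158 in UVB_Saline and 156 to 174 in UVB_hCOL3A1, with no marker at 0 in all libraries. Most of that sum was Tcf4 (117 to 148 CPM over the 9 libraries), which many cell types express. The more specific marker Siglech stood at 1.14, 0.982 and 0.385 CPM in NoUVB, 0.103, 0.164 and 0.976 in UVB_Saline, and 1.14, 0.564 and 1.19 in UVB_hCOL3A1, on 1 to 15 counts, and Cox6a2 at 1.25 to 2.23, 0.924 to 3.04 and 3.58 to 5.07 CPM. T cell markers, in these athymic mice, summed to 18.8 to 27.9 CPM in NoUVB and 19.1 to 35.4 in UVB_hCOL3A1. In UVB_Saline 1, 2 and 3 they summed to 18.3, 21.2 and 44.9 CPM, the order of the effector genes. Neutrophil markers summed to 14.2 to 26.2, 17.3 to 32.4 and 22.1 to 41.8 CPM, with Ly6g at 0 throughout. Hair follicle markers went the other way within UVB_Saline, at 8355, 5166 and 1133 CPM in libraries 1, 2 and 3. UVB_Saline 3, with the highest effector levels, had the lowest sum of all, where NoUVB had 5807 to 11210 and UVB_hCOL3A1 2400 to 5858. Immediate early genes (Fos, Jun, Egr1 and others, 8 in all), which stress and tissue handling induce, summed to 423 to 696 CPM in NoUVB, 296 to 379 in UVB_Saline and 267 to 358 in UVB_hCOL3A1, so that all irradiated libraries lay below all unirradiated ones. Of these 8 genes, 5 were lower at an unadjusted p under 0.05 in UVB_Saline against NoUVB (4.6% of all genes) and 7 in UVB_hCOL3A1 against NoUVB (5.52%), with 0 past adjustment in edgeR. The part of these lists in the results was not tested.

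**Figure D5:**
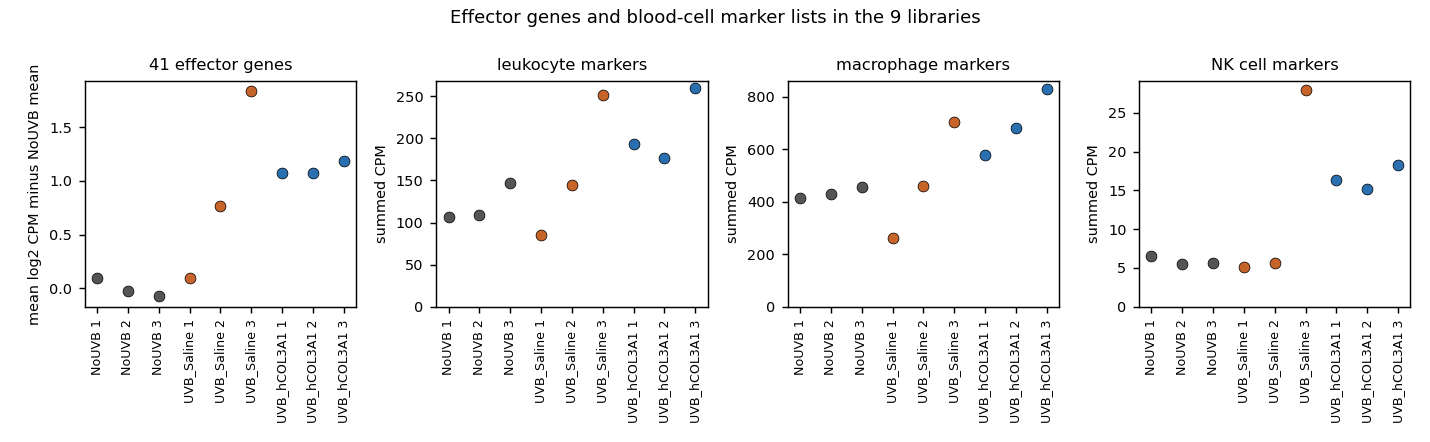
Mean log2 CPM minus the NoUVB mean of the 41 genes (left) and summed CPM of the leukocyte, macrophage and NK cell marker lists (right panels) in the 9 libraries, coloured by group. UVB_Saline 1 is the lowest and UVB_Saline 3 the highest of its group in all 4 panels.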

How the data were processed

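Skin RNA, extracted with TRIzol, was read on an Illumina instrument in pairs of 150 bp, per the labels' protocols. The submitters' processing notes list RSEM 1.3.3, STAR 2.7.11b, Bowtie2 2.5.4, fastp 0.23.4 and, for the build, GRCm39, without roles. Neither annotation release nor strandedness is given in the sources used here; reads of antisense or overlapping genes are thus not separable. The values deposited by the authors are estimated counts in 1 table, 11.1% to 14.0% of them per library not whole (tolerance 1e-06), and were rounded here. The 525 genes without a symbol held 0.0384% of counts. No 2 libraries were identical; chi-square per degree of freedom within groups was 8.18 to 250.

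The tests used edgeR 4.0.16 (R 4.3.3): filterByExpr, TMM, 1 robust quasi-likelihood fit of 3 groups with 6 residual degrees of freedom and a common BCV of 0.193, 4 two-sided contrasts, Benjamini-Hochberg over 17168 genes, threshold 0.05. The code was tested on simulated data. Alternatives used limma 3.58.1, DESeq2 1.42.0, other scalings, filters and groupings, and left out each library. Count floors cover counting error only.

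The members and lists were chosen with earlier results of these data known. Genes were named by rule: in each role group of 3 or more, the 2 members with the smallest p in irradiated against NoUVB (1 in smaller groups); 9 fixed genes (Isg15, Usp18, Stat2, Mx1, Ifit3, Ifit3b, Bst2, Ifi27l2a, Lgals3bp); the 3 with the smallest p between the irradiated groups; pathway genes with an unadjusted p under 0.05, with Ifnar1, Ifnar2 and Irf9; and the 5 most like genes outside the list. The result of 1 other gene under this rule is not reported here. Promoter windows and gene order are from RefSeq (GRCm38.p6), another build than the files', and serve for sequence only.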

Additional observations from a re-analysis of the deposited data

How the results depend on the processing

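Against NoUVB, fitted differences of the 41 genes and the named pathway genes kept their direction in all alternatives run, except as follows. Uba7 in UVB_hCOL3A1 against NoUVB was -0.017 with scaling by library size alone and ranged from -0.018 (without UVB_hCOL3A1 3) to 0.25 when 1 library was left out. In UVB_Saline against NoUVB, leaving out 1 library gave ranges whose lower end, without UVB_Saline 3, was negative: Stat2 -0.018 to 1.19, Samd9l -0.12 to 0.78, Ifi211 -0.060 to 0.99, Parp12 -0.050 to 0.97, Trim21 -0.12 to 0.96, Sp100 -0.0070 to 0.68, Ifi35 -0.022 to 0.93 and Ifi47 -0.12 to 1.93. The cause of each change was not tested.

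Series of 4 counts follow the order UVB_Saline against NoUVB, UVB_hCOL3A1 against UVB_Saline, UVB_hCOL3A1 against NoUVB, irradiated against NoUVB. Of all genes 3, 0, 7 and 2 were called, against 100, 30, 159 and 138 with library size alone, 73, 106, 178 and 120 without a filter, and 100, 173, 269 and 166 in DESeq2. Of the 41 genes 0, 0, 1 and 0 were called, against 7, 0, 12 and 11, then 3, 0, 4 and 3, then 5, 0, 11 and 12. In UVB_hCOL3A1 against NoUVB, all genes and genes of the 41 called were 0 and 0 in limma voom, 73 and 3 with quality weights, 1 and 0 with non-robust dispersion, and 407 and 26 in the fit of only the groups compared, which also called 1 pathway gene. In irradiated against NoUVB, voom called 1 gene and the weighted fit 10. Genes of the 41 higher at an unadjusted p under 0.05 (21 and 2 in the first pair of comparisons) were 11 and 5 in voom (4.37% and 6.88% of all genes). They were 13 and 1 with only the groups compared (3.39% and 6.33%), and 8 in the second with quality weights (7.14%). Scaling by library size alone moved the median of all genes in UVB_hCOL3A1 against NoUVB from -0.01 to -0.12.

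With the replicate number as a block, all genes called were 61, 74, 118 and 51. Of the 41, 2 (Epsti1 and Trim30d) were called in UVB_hCOL3A1 against NoUVB and 2 in irradiated against NoUVB. Between the irradiated groups 4 were higher at an unadjusted p (7.44% of all genes), with 1 pathway gene called (Ifngr1). Same-numbered libraries deviated together with correlations of 0.018 to 0.41, all positive but not all over 0.1. Out of 3 candidates each time, a library correlated best with its own number in 12 of 18 cases. These cases are not independent of each other, and they do not settle whether the numbers pair the samples. The labels state no pairing, so the fit that gives the differences here used none.

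Leaving out 1 library at a time, all genes called ranged from 0 to 12, 0 to 78, 0 to 242 and 0 to 69, and called genes of the 41 from 0 to 4, 0 to 2, 0 to 20 and 0 to 9. Those higher at an unadjusted p ranged from 11 to 38, 1 to 24, 16 to 36 and 17 to 35. Over all genes that share ranged from 2.95% to 7.31%, 3.47% to 9.39%, 4.56% to 8.32% and 3.59% to 7.62%. The medians of the 41 ranged from 0.25 to 1.26, -0.28 to 0.66, 0.86 to 0.93 and 0.51 to 1.08. With 3 libraries a group and NoUVB levels near 1 CPM, depth limits the genes with low counts.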
